A study of Sus scrofa with 64 samples.

Results

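Homeobox genes encode transcription factors that bind DNA through a shared helical domain, the homeodomain. The HOX genes lie in clusters, and in vertebrate embryos they are switched on in an order along the body axis that follows their order along the chromosome, so that each level of neck, trunk and limb carries its own combination. The other families named here act in particular places or cell types, such as the forebrain, the pituitary, connective tissue or muscle, and the MEIS and PBX proteins of the TALE group bind DNA together with HOX proteins.

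The members described here were taken by gene symbol: every probe set whose platform annotation names a gene of the HOXA to HOXD, PRRX, MEOX, DLX, LHX, PITX, NKX, MEIS, PBX, MSX, CDX, OTX, ZFHX or POU families or of the sine oculis homeobox family, here represented by SIX4 alone, without POU1F1. This gave 23 genes with 34 probes, out of 6790 genes named on the array and 23935 probes, of which 10110 carry 1 gene symbol. The HOX genes had 8 probes of 6 genes, HOXA3, HOXA9, HOXB7, HOXD8, HOXD10 and HOXD12. The PRRX and MEOX genes had 2 probes, the TALE group 6 probes of 3 genes, the LHX genes 4 of 3, the POU genes 7 of 5, and SIX4, MSX1, DLX5 and NKX6-1 had 2, 2, 1 and 2. The PITX, CDX, OTX and ZFHX families had 0 probes with a symbol. No threshold on the measured level was used, but the families were chosen with earlier results of these data known. The paper had already named PRRX1, HOXD8 and MEOX2 among the most extreme genes of muscle and fat. In that comparison it left out the thyroid gland, the adrenal glands and blood. Where a gene has 2 probes, probe a is the brighter one over all arrays.

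Messenger RNA of 16 tissues from each of 4 pigs was measured on 64 Affymetrix porcine arrays, 1 array per tissue and animal. The pigs were a Large White male of 38.8 kg and a Large White female of 36.2 kg, both 87 days old, and an Iberian male of 25.4 kg and an Iberian female of 32.8 kg, both 89 days old. By the paper's account they were bought from 2 breeding companies and moved to the university farms at weaning, at about 1 month. From then on they were kept at the same time on the same diets, and no treatment is described. Which company supplied which breed is not stated, so breed and origin may not be separable. Values are log2 levels after RMA, a normalization that gives all arrays a common distribution, so that 1 unit is a 2-fold difference in signal, and levels are compared between tissues within a probe and never between probes. Single values are given in the order Large White male, Large White female, Iberian female, Iberian male. Tissues were set along the body in 2 groups: the body, with thyroid gland, diaphragm, stomach, liver, adrenal cortex and medulla, back fat, abdominal fat, ileum and Biceps femoris (10 tissues), and the head, with both lobes of the hypophysis, the pineal gland, olfactory bulb and hypothalamus (5 tissues). Blood has no position and stood apart. The pigs were growing animals, so all levels are those of organs after birth and not of the embryo.

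Array medians lay between 5.38 and 5.524. All 15 lists of marker genes checked had their highest mean in the tissue, or in a tissue of the pair, set for them. Both muscles, both fats, both adrenal samples, both lobes of the hypophysis, and olfactory bulb with hypothalamus were taken as pairs. The check therefore does not separate the tissues of a pair. Of these lists, 11 had every array of that tissue or pair above every other array. The exceptions were pineal, hypothalamic peptide, leukocyte and glial markers. Of the 64 arrays, 11 were nearer to another tissue than to their own (the Large White male's pineal gland, 5 adrenal arrays, 1 back fat and 4 abdominal fat arrays). Adrenal cortex markers had a mean of 9.82 in the medulla and 9.91 in the cortex, so the adrenal samples are not read as separate cell types. A member was called where limma gave an adjusted p under 0.05 over all probes and a difference of at least 1 log2 unit.

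The members varied between tissues by amounts that ran over a wide range. The mean level of a member differed by between 0.8 and 7.71 log2 units from its lowest to its highest tissue, with a median of 2.28, against a median of 1.74 over all probes. Of the 34 members 19 (55.9%) spanned 2 units or more, against 42.1% of all probes, and 5 spanned less than 1 unit. MEIS2 probe a (7.71), HOXA9 (6.25), HOXD8 (6.05) and SIX4 probe a (5.62) spanned most. Probes of HOXD12, POU2F3 and POU2F1 spanned least, between 0.8 and 0.96 units. POU2F1 is a factor made in most cells, and its probe lay between 5.26 and 6.64 on all body and head arrays.

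**Figure D1:**
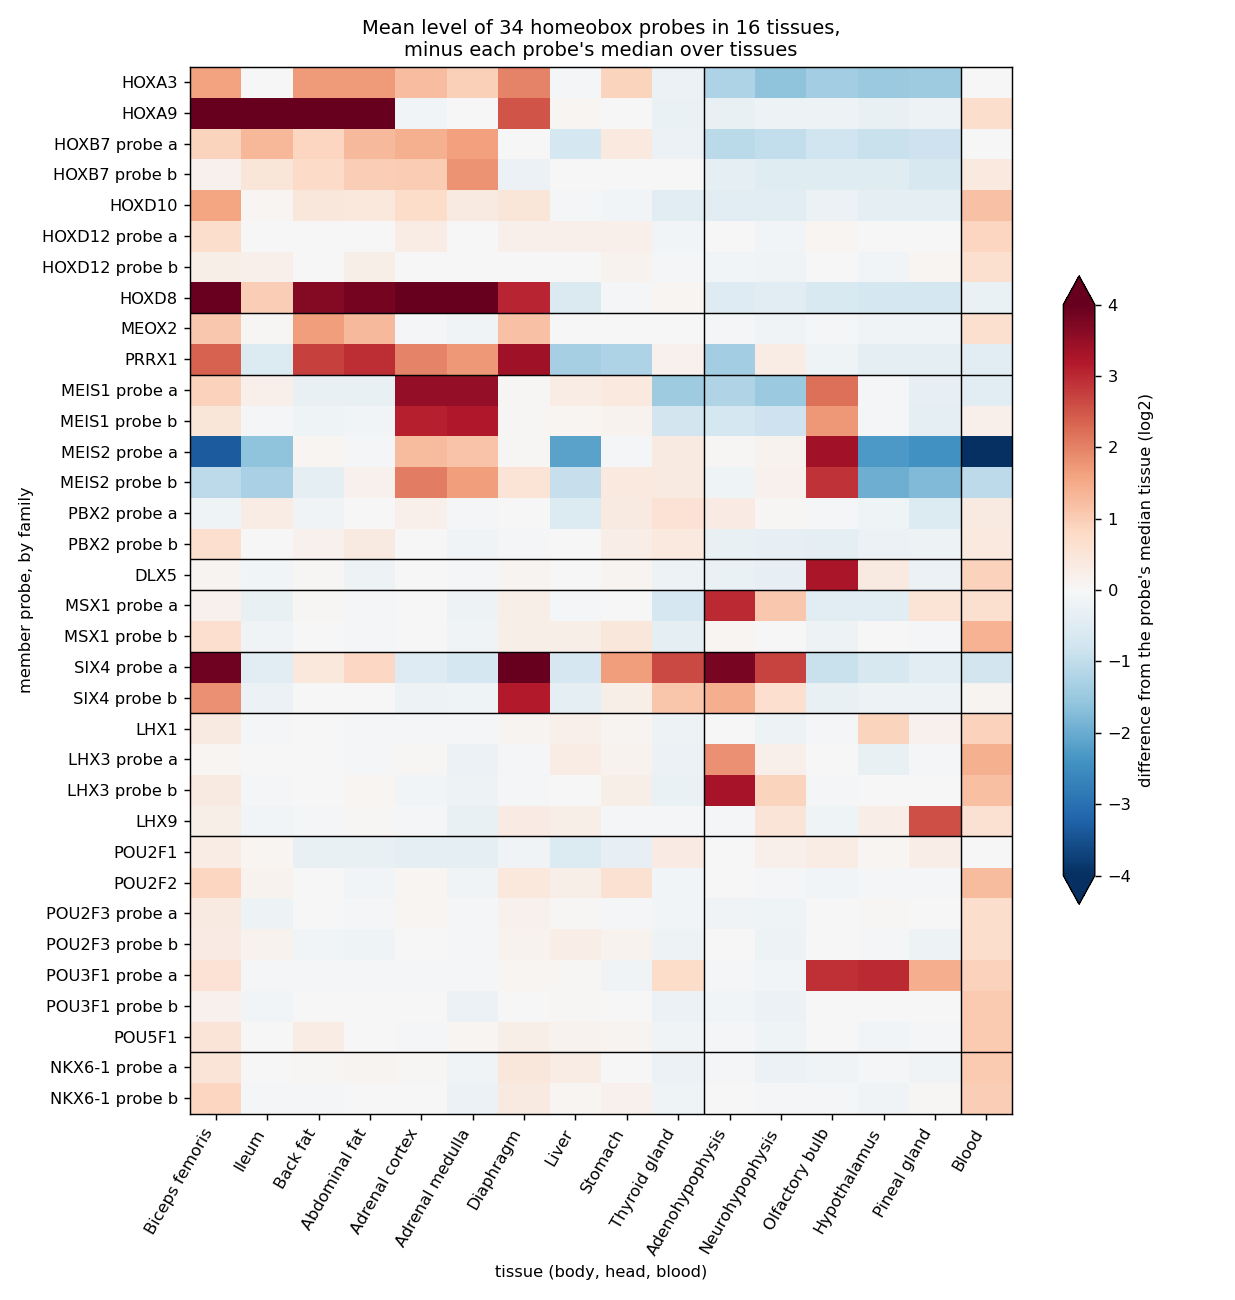
Mean log2 level of the 34 homeobox probes (rows, by family) in 16 tissues (columns, body, head and blood), each minus the probe's median over the 16 tissues. Red is higher and blue lower than that median, colours saturate at 4 units, the deepest red of HOXA9 and HOXD8 is among the 10 body tissues, and that of DLX5, LHX9 and LHX3 probe b is in olfactory bulb, pineal gland and adenohypophysis.

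For genes with 2 probes, the tissue pattern of both could be set side by side. Over the 16 tissue means Pearson's r was 0.978 for MEIS1, 0.927 for SIX4, 0.913 for LHX3, 0.91 for NKX6-1, 0.893 for HOXB7, 0.881 for MEIS2, 0.8 for POU2F3 and 0.756 for HOXD12. It was 0.266 for PBX2, 0.225 for MSX1 and 0.176 for POU3F1. In MSX1 and POU3F1 the dimmer probe did not share the peak of the brighter one, and results for these genes are therefore given by probe.

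The body tissues were compared with the head tissues to ask how the members lie along the body. HOXD8, HOXA9, HOXA3 and HOXB7 were higher in the body, as was PRRX1, a factor of limb and connective tissue mesenchyme, and POU3F1 was lower in the body. These were 5 members called higher and 1 called lower out of 34, that is 14.7% and 2.94% of the members, against 5.84% and 7.89% of all probes. HOXD8 and PRRX1 were already known from the paper as extreme in muscle and fat, so the share called higher is not an independent count. The median difference over the members was 0.18 log2 units, against 0.09 over all probes. The SE, p and calls of this comparison rest on the spread of arrays within tissues. They do not measure the spread between tissues, for which a fit on tissue means is given further below.

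HOXA3 is the HOX member closest to the head in its known range, and in the mouse it is needed for organs of the neck. It lay between 4.64 and 7.68 on the 40 body arrays, with a median of 6.55, and between 3.39 and 4.46 on the 20 head arrays. Every body array was above every head array. The difference was 2.4 ± 0.1 log2 units (SE, adjusted p = 3.4e-28), and within single animals it was 2.21, 2.35, 2.61 and 2.45. Diaphragm, whose muscle cells come from the neck of the embryo, had the highest mean, 7.23 ± 0.32 (SD, n = 4), and thyroid gland the lowest of the body tissues, 5.04 ± 0.45. Neighbouring tissues in this order overlapped, except for the step between thyroid gland and the highest head tissue, adenohypophysis at 4.02 ± 0.3.

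HOXD8, a trunk HOX gene, had the largest difference between body and head, 3.14 ± 0.09 log2 units (adjusted p = 1.3e-34). Its mean level was 7.12 over the body tissues and 3.98 over the head tissues. Its levels in adrenal cortex were 9.82, 9.74, 10.09 and 10.01, and in adrenal medulla 9.22, 10.06, 10 and 9.69. They were 8.1, 9.21, 7.62 and 9.15 in Biceps femoris, the large muscle at the back of the thigh. Both fats followed with means of 8.41 (abdominal) and 8.24 (back), then diaphragm with 7.62 and ileum with 5.57. All 4 arrays of each of these 7 tissues stood above every head array, and there was no overlap between adrenal glands and Biceps femoris (though barely), between diaphragm and ileum, or between ileum and thyroid gland. Liver, at 3.99 ± 0.07, lay among the head tissues, and so did 3 of 4 stomach arrays.

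HOXA9, which belongs to the rear trunk and, in blood-forming cells, to stem and progenitor cells, was high in 4 body tissues. It read 8.83, 8.99, 8.94 and 8.96 in Biceps femoris, 8.85, 9.05, 8.26 and 8.32 in back fat, 8.22, 8.15, 8.33 and 7.88 in abdominal fat, and 7.89, 8.35, 6.95 and 7.58 in ileum. Diaphragm followed with 4.53, 6.01, 6.25 and 5.22. None of the other 10 tissues apart from blood had a mean over 3.05, and blood had 3.67 ± 0.52. The 4 tissues of thigh, back, abdomen and lower small intestine overlapped with their neighbours in this order and lay clear of the diaphragm. The diaphragm lay clear of all remaining tissues. Both adrenal samples, which had the top levels of HOXD8, had HOXA9 at 2.86 ± 0.35 (cortex) and 2.97 ± 0.16 (medulla), close to the head mean of 2.74. Over body against head the difference was 2.6 ± 0.09 log2 units (adjusted p = 2.9e-32). With tissue means as units, limma gave an SE of 1.17 (adjusted p = 0.15).

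The HOXB7 probes were highest in the adrenal glands. Probe a had means of 6.16 in medulla, 5.94 in cortex, 5.85 in ileum, 5.83 in abdominal fat, 5.41 in Biceps femoris and 5.37 in back fat, all overlapping with their neighbours. It was 5.21 over the body and 3.6 over the head tissues, a difference of 1.61 ± 0.09 log2 units (adjusted p = 1.5e-22), and 35 of 40 body arrays were above every head array. Probe b differed by 0.99 ± 0.07 log2 units (adjusted p = 3.8e-18), just short of the minimum difference. It read 5.28, 5.09, 4.76 and 5.28 in adrenal medulla, with all 4 arrays above all those of other tissues.

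HOXD10 and HOXD12 lie in the HOXD cluster with HOXD8 and are known from the developing limb, where HOXD12 belongs to the far end. HOXD10 had 8.12, 7.95, 8.38 and 7.75 in Biceps femoris and 7.47, 7.81, 7.72 and 7.53 in blood, which overlapped, and thyroid gland (6.04) lay with the head tissues (6.02 to 6.24). Its difference between body and head was 0.73 ± 0.05 log2 units (adjusted p = 6.7e-18). HOXD12 was dim and flat. Its probe a had 3.31, 3.57, 3.82 and 3.63 in Biceps femoris and spanned 0.96 units over all tissues, with the highest mean, 3.74, in blood.

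**Figure D2:**
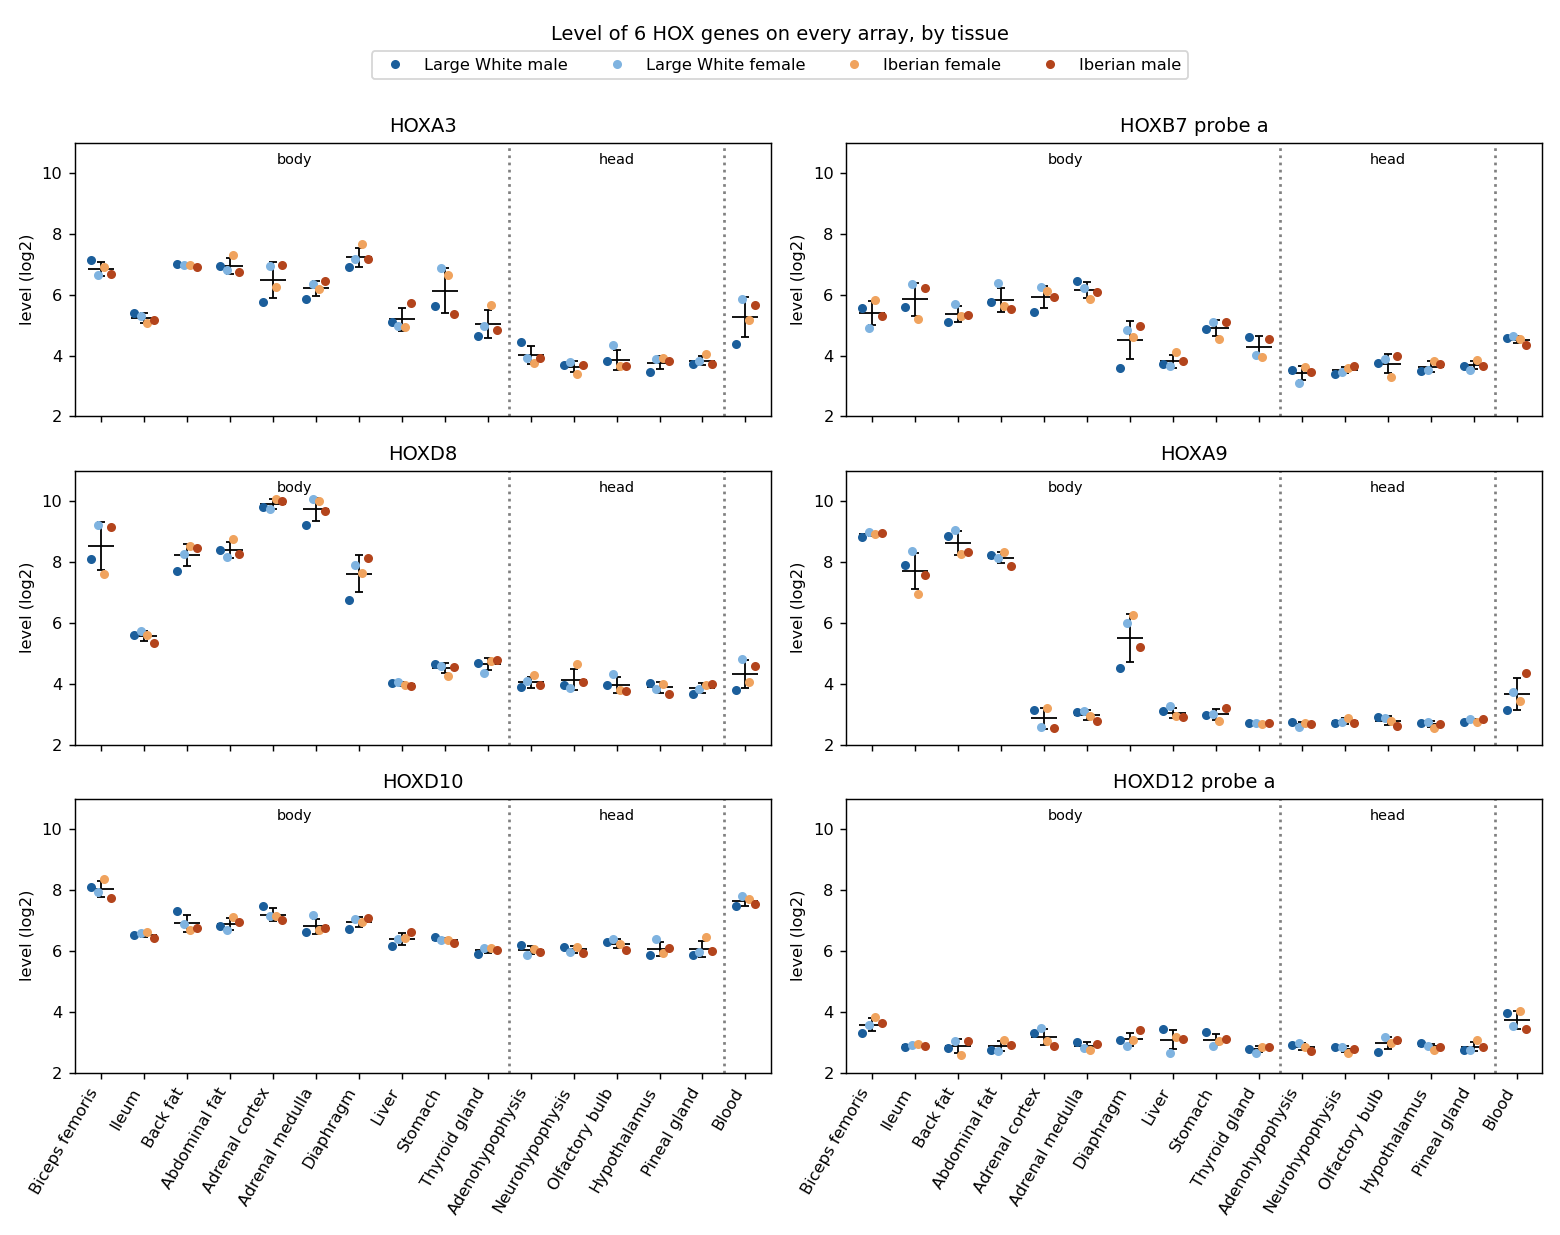
Level of 6 HOX genes (log2, 1 panel each) in 16 tissues, with 1 point per array coloured by animal and the mean and SD of the 4 arrays in black; dotted lines part body, head and blood. HOXA3 is above the head arrays in every body tissue, HOXD8 peaks in the adrenal glands near 9.8, and HOXA9 is above 6.9 in only 4 tissues, Biceps femoris, ileum and both fats.

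PRRX1 showed 7.91, 7.91, 8.1 and 8.43 in diaphragm, 7.56, 6.98, 7.79 and 8.34 in abdominal fat, 7.3, 7.14, 7.4 and 7.92 in back fat and 7.12, 7.03, 6.95 and 7.19 in Biceps femoris. Adrenal cortex (6.68) and medulla (6.44) followed without overlap with muscle. Ileum (4.16), stomach (3.46) and liver (3.39) were below the head mean of 4.31 but above adenohypophysis, the lowest tissue at 3.32. Over body against head PRRX1 averaged 5.93 and 4.31, a difference of 1.61 ± 0.09 log2 units (adjusted p = 6.3e-22). With tissue means as units, limma gave an SE of 0.79 (adjusted p = 0.19). For PRRX1, 24 of 40 body arrays, those of 6 tissues, were above every head array. MEOX2, a mesoderm factor of muscle and vessels, was dim, with means of 4.45 in back fat, 4.08 in abdominal fat, 3.95 in diaphragm and 3.86 in Biceps femoris. These 4 tissues were above every head array, and the body difference was 0.62 ± 0.06 log2 units (adjusted p = 5e-14). The mean of 23 probes of fibroblast and matrix markers was also highest in abdominal fat (8.07), back fat (7.96), Biceps femoris (7.18) and diaphragm (6.81), and was 6.57 in stomach and 5.47 to 6 in the head tissues. Its part in the levels of PRRX1 and MEOX2 was not tested. In whole tissue, more cells of a type and more RNA per cell cannot be told apart.

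POU3F1, a POU factor of neurons and of cells that make myelin, was lower in the body by probe a, with 3.19 over body and 4.52 over head tissues (difference -1.33 ± 0.1 log2 units, adjusted p = 1.2e-16). Its levels came from olfactory bulb and hypothalamus, and leaving out either brought the difference to -0.96 (without olfactory bulb) and -0.95 (without hypothalamus). Probe b showed 3.15 and 3.12. The remaining members differed by less than 1 log2 unit, with MEIS1 probe a (0.85) and MSX1 probe a (-0.83) nearest to it.

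The head tissues are nervous or neuroendocrine, and 16 of 17 probes of neuron markers were called lower in the body, so that position and kind of tissue cannot be told apart in this comparison. When tissue means were taken as the units, 10 against 5, HOXA3 (adjusted p = 0.00055), HOXB7 probe a (0.0065) and HOXD8 (0.041) were still called. That fit counts adrenal cortex and medulla as separate units, and both fats as well, though these samples resembled each other closely. HOXD8 had means of 9.91 and 9.74 in the adrenal samples and 8.41 and 8.24 in the fats. Its adjusted p therefore treats similar tissues as independent. HOXA9 (0.15), PRRX1 (0.19) and POU3F1 probe a (0.066) were no longer called. The SD of the tissue means of HOXA9 was 2.72 over the body and 0.06 over the head, that of PRRX1 1.79 and 0.62, and that of POU3F1 probe a 0.3 and 1.53. In that fit 2.27% of all probes were called higher and 5.74% lower.

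**Figure D3:**
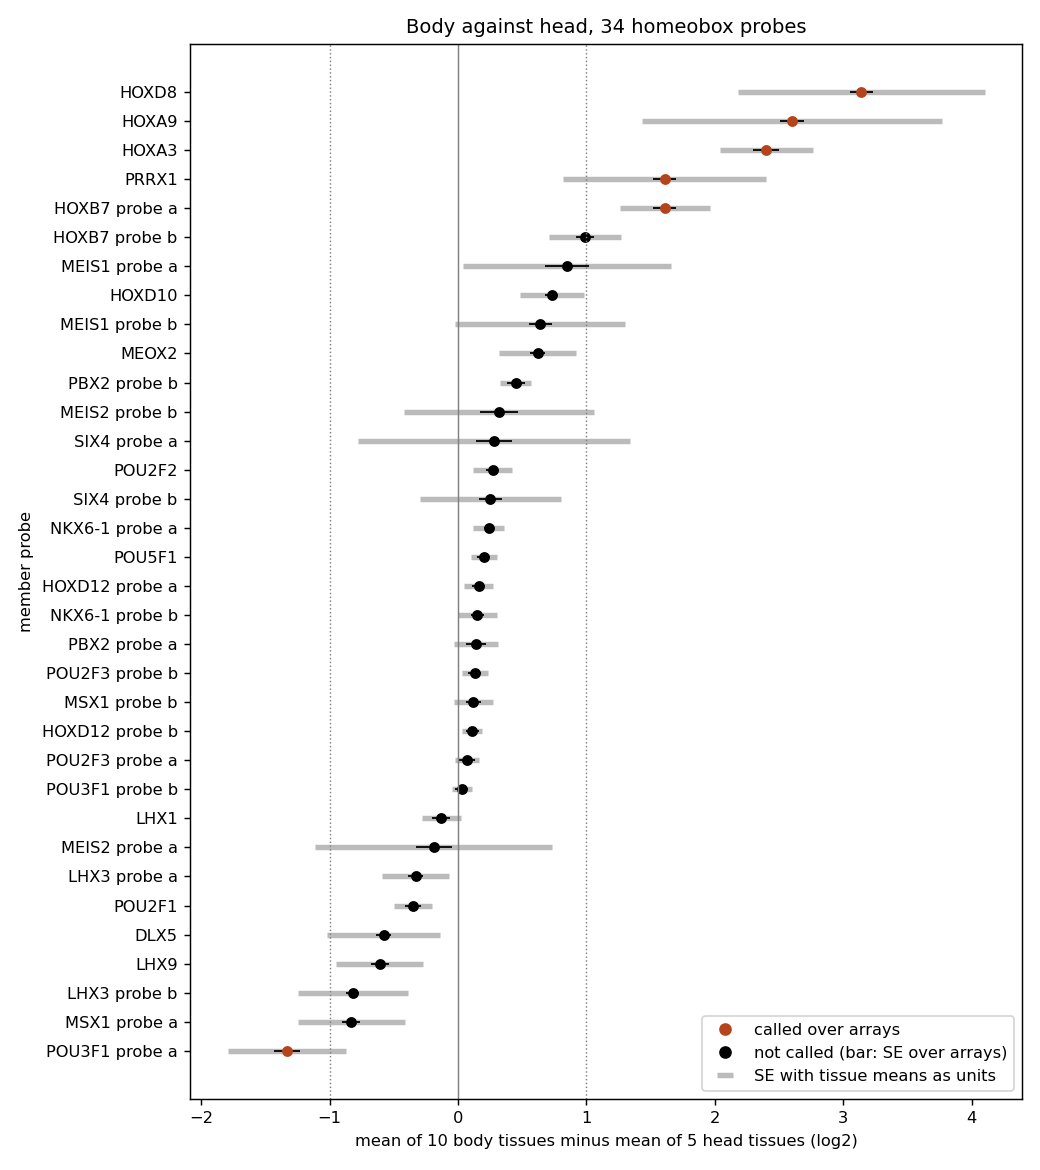
Difference between the mean of 10 body tissues and the mean of 5 head tissues (log2, horizontal) for the 34 homeobox probes (vertical), with the SE over arrays in black and the SE with tissue means as units in grey. HOXD8 at 3.14 is the highest and POU3F1 probe a at -1.33 the lowest, and the grey bars of HOXA9 and PRRX1, whose body tissue means had SDs of 2.72 and 1.79, are wide.

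Next, tissues were compared in pairs. Biceps femoris and diaphragm are both skeletal muscle, and the mean of 12 skeletal muscle marker probes was 12.65 and 12.43. The paper describes the diaphragm as mainly oxidative and Biceps femoris as glycolytic, and fibroblast and matrix markers had means of 6.81 and 7.18 there. Position and type of muscle cannot be told apart in this pair. HOXA9 was higher in Biceps femoris by 3.43 ± 0.22 log2 units (8.93 against 5.5, adjusted p = 4.5e-17), and HOXD10 by 1.09 ± 0.14 (8.05 against 6.96, adjusted p = 4.6e-08). MEIS2, SIX4 and PRRX1 were lower. The 2 members called higher and 4 called lower are 5.88% and 11.8% of the members, against 0.911% and 4.09% of all probes.

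MEIS2 probe a read 4.6, 4.44, 4.57 and 4.36 in Biceps femoris, against 7.78, 7.6, 8 and 8.09 in diaphragm. The groups were far apart, by -3.37 ± 0.36 log2 units (adjusted p = 6.4e-10), and probe b gave -1.57 ± 0.4 (adjusted p = 0.0029). MEIS1 probe a went the other way without a call, 7.86 against 6.98 (0.88 ± 0.44, adjusted p = 0.14). PRRX1 had 7.07 in Biceps femoris and 8.08 in diaphragm, with no overlap (-1.01 ± 0.24, adjusted p = 0.0013).

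SIX4, a factor of muscle development, had its highest means of all tissues in these 2 muscles. Probe a read 8.13, 7.87, 6.2 and 8.45 in Biceps femoris, against 8.54, 8.54, 8.73 and 8.28 in diaphragm, and was not called (-0.86 ± 0.36, adjusted p = 0.069). Probe b read 5.02, 4.14, 3.28 and 5.69, against 6.24, 5.82, 5.81 and 5.67, and was called (-1.35 ± 0.23, adjusted p = 1.5e-05). In both probes the Iberian female's Biceps femoris was the lowest, and without that array probe b fell short of the minimum difference, at -0.95, as did HOXD10 at 0.99 and PRRX1 at -0.93. The skeletal muscle markers of that array were 12.46, against 12.67 to 12.75 in the other 3. With the arrays of the 2 muscles alone, 3 members were called, HOXA9, MEIS2 probe a and PRRX1, while HOXD10 (adjusted p = 0.056), MEIS2 probe b (0.051) and SIX4 probe b (0.14) were not. HOXD8 (8.52 against 7.62), HOXB7 probe a (5.41 against 4.51) and HOXA3 (6.86 against 7.23) were not called between the muscles.

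The gut was compared at ileum and stomach, where the kinds of cells were not matched. Markers of gastric epithelium had a mean of 4.99 in ileum and 11.56 in stomach, with 8 of 8 probes called lower. Those of enterocytes had 8.69 and 4.26, with 6 of 7 called higher, and those of leukocytes 8.16 and 5.56, with 8 of 8 called higher. Position and cell content cannot be told apart between these 2 organs. HOXA9 gave the largest difference of any HOX gene in the 3 pairs of muscle, gut and fat, with 7.89, 8.35, 6.95 and 7.58 in ileum, against 2.98, 3, 2.77 and 3.2 in stomach (4.71 ± 0.22 log2 units, adjusted p = 3.2e-24). HOXD8 was also higher, with 5.6, 5.73, 5.6 and 5.34 in ileum, against 4.65, 4.58, 4.27 and 4.55 in stomach (1.06 ± 0.24, adjusted p = 0.00029). HOXB7 probe a was higher on every ileum array but under the minimum difference (5.85 against 4.91, 0.94 ± 0.23, adjusted p = 0.00089). HOXA3 ran the other way, 5.24 against 6.14 (-0.9 ± 0.25, adjusted p = 0.0037), with overlap. In all, 2 members were called higher and 3 lower, 5.88% and 8.82% of the members, against 6.93% and 5.92% of all probes, so that their number is near that of probes in general.

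The members lower in ileum were SIX4 and MEIS2, and their stomach arrays were far apart. SIX4 probe a read 2.97, 3.03, 3.91 and 3.44 in ileum, against 6.63, 5.42, 3.35 and 6.45 in stomach (-2.12 ± 0.36, adjusted p = 2.8e-06). MEIS2 probe b read 4.96, 4.28, 3.79 and 4.52 in ileum, against 5.09, 6.16, 8.05 and 5.08 in stomach (-1.71 ± 0.4, adjusted p = 0.00052), and probe a 6.84, 6.18, 5.62 and 6.29, against 6.88, 8.4, 9.45 and 6.33 (-1.53 ± 0.36, adjusted p = 0.00049). The Iberian female's stomach was thus lowest in SIX4 and highest in MEIS2. Without the arrays of that animal MEIS2 gave -0.86 for probe b (adjusted p = 0.12) and -0.77 for probe a (0.11), HOXD8 gave 0.96, and SIX4 probe a gave -3.02. With the arrays of the 2 organs alone, HOXA9, HOXD8 and SIX4 probe a were called, and MEIS2 probe b (adjusted p = 0.077) and probe a (0.1) were not. MEIS1 probe a, at 6.4, 8.89, 7.74 and 6.34, and the mean of 11 smooth muscle marker probes, at 7.24, 8.7, 7.66 and 6.91, were both highest on the Large White female's stomach array. The part of smooth muscle in these samples was not tested.

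**Figure D4:**
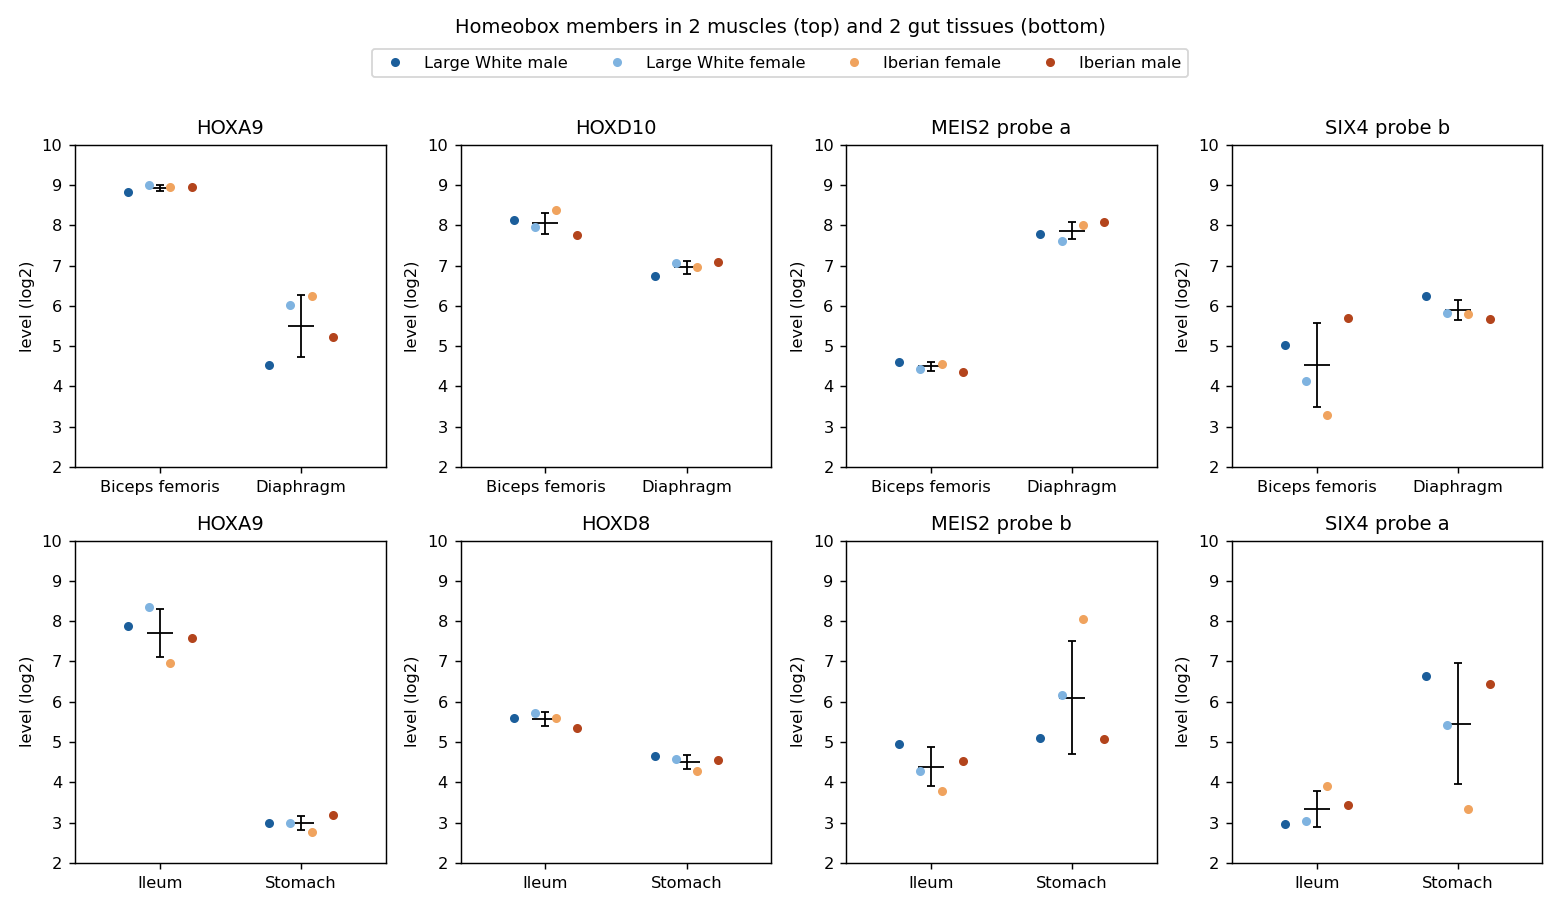
Levels (log2) of 4 homeobox probes in Biceps femoris and diaphragm (top) and of 4 in ileum and stomach (bottom), 1 point per array coloured by animal, with mean and SD in black. HOXA9 is higher in Biceps femoris and in ileum with no overlap, and the stomach points of MEIS2 probe b and SIX4 probe a run from 5.08 to 8.05 and from 3.35 to 6.63.

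Back fat and abdominal fat, the third pair, had 0 members called in either direction by limma, where 0.0794% of all probes were called higher and 0.155% lower. At an unadjusted p under 0.05, 3 members were higher and 1 lower in back fat. HOXA9 was 8.62 against 8.15 (0.47 ± 0.22, interval of 2 SE from 0.03 to 0.92, adjusted p = 0.52). HOXD8 was 8.24 against 8.41 (-0.17, interval from -0.64 to 0.31), HOXA3 6.97 against 6.95 (0.02, interval from -0.48 to 0.53) and PRRX1 7.44 against 7.67 (-0.23, interval from -0.7 to 0.25). A 2-fold difference lay outside each of these 4 intervals.

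Within the head, olfactory bulb and hypothalamus are both forebrain tissues, and the mean of 17 neuron marker probes was 10.06 and 9.94. Other cell content was not matched. Glia and myelin markers had means of 7.74 and 8.35, with 4 of 22 probes called lower in the bulb and 0 higher. Of 10 hypothalamic peptide probes, 5 were called lower in the bulb and 2 higher. Position and cell content cannot be told apart between these tissues. In the olfactory bulb MEIS2, DLX5 and MEIS1 were higher. These were 5 probes, 14.7% of the members, against 2.24% of all probes, and 0 members were lower, against 1.7% of all probes (2 members at an unadjusted p under 0.05 in limma). Of these, LHX1, a factor of neurons, read 3.54, 3.66, 3.66 and 3.56 in olfactory bulb, against 4.51, 4.64, 4.73 and 4.29 in hypothalamus. All bulb arrays were below all hypothalamus arrays, and the difference (-0.94 ± 0.18, adjusted p = 0.00015) missed the call by its size alone. MEIS2 and DLX5 are known from the interneurons that the adult olfactory bulb keeps receiving, in which DLX5 acts with its DLX relatives in the mouse.

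MEIS2 probe a read 11.55, 11.39, 10.65 and 11.14 in olfactory bulb, against 5.31, 5.74, 6.17 and 4.92 in hypothalamus. The difference of 5.65 ± 0.36 log2 units (adjusted p = 4e-18) was the largest of any member in the 5 pairs of tissues, and probe b gave 4.87 ± 0.4 (adjusted p = 7.2e-14). DLX5 read 6.69, 6.94, 6.01 and 6.86, against 3.83, 3.82, 3.59 and 3.77 (2.88 ± 0.15, adjusted p = 1.8e-21), and all 4 bulb arrays were above every array of any other tissue. MEIS1 probe a had 9.16 against 6.91 (2.25 ± 0.44, adjusted p = 0.00019) and probe b 6.42 against 4.61 (1.81 ± 0.22, adjusted p = 2.2e-08). POU3F1 probe a, at 6.02 and 6.07, did not separate the 2 tissues (-0.05 ± 0.27, adjusted p = 0.96).

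The hypophysis was compared between its glandular front lobe, the adenohypophysis, and its neural rear lobe, the neurohypophysis. LHX3, which pituitary endocrine cells need to form, was the clearest. Probe b read 6.15, 6.41, 6.69 and 7 in adenohypophysis, against 4.27, 3.74, 4.11 and 4.42 in neurohypophysis (2.42 ± 0.14, adjusted p = 2.3e-20), and probe a gave 1.62 ± 0.16 (adjusted p = 1.6e-11). MSX1 probe a, of a factor known from the developing face and teeth, had 8.97, 9.08, 8.89 and 8.75, against 7.23, 6.44, 7.05 and 7.29 (1.92 ± 0.18, adjusted p = 4.1e-12), while its probe b had 4.3 against 4.24. SIX4 probe a was 7.57 against 6.49 (1.09 ± 0.36, adjusted p = 0.023), a call lost without the Large White female (0.24), without the Iberian male (0.12) or on natural logarithms of the log2 values (0.16). PRRX1 was lower in the glandular lobe, with 3.34, 3.28, 3.24 and 3.44, against 4.03, 5.71, 5.2 and 5.09 (-1.68 ± 0.24, adjusted p = 1.8e-07). The 4 members higher and 1 lower are 11.8% and 2.94% of the members, against 2.82% and 4.3% of all probes. Both lobes carried pituitary endocrine markers, with a mean of 10.01 in adenohypophysis and 6.78 in neurohypophysis over 13 probes, against at most 4.52 on any array of another tissue, and fibroblast markers were 5.55 and 6.

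**Figure D5:**
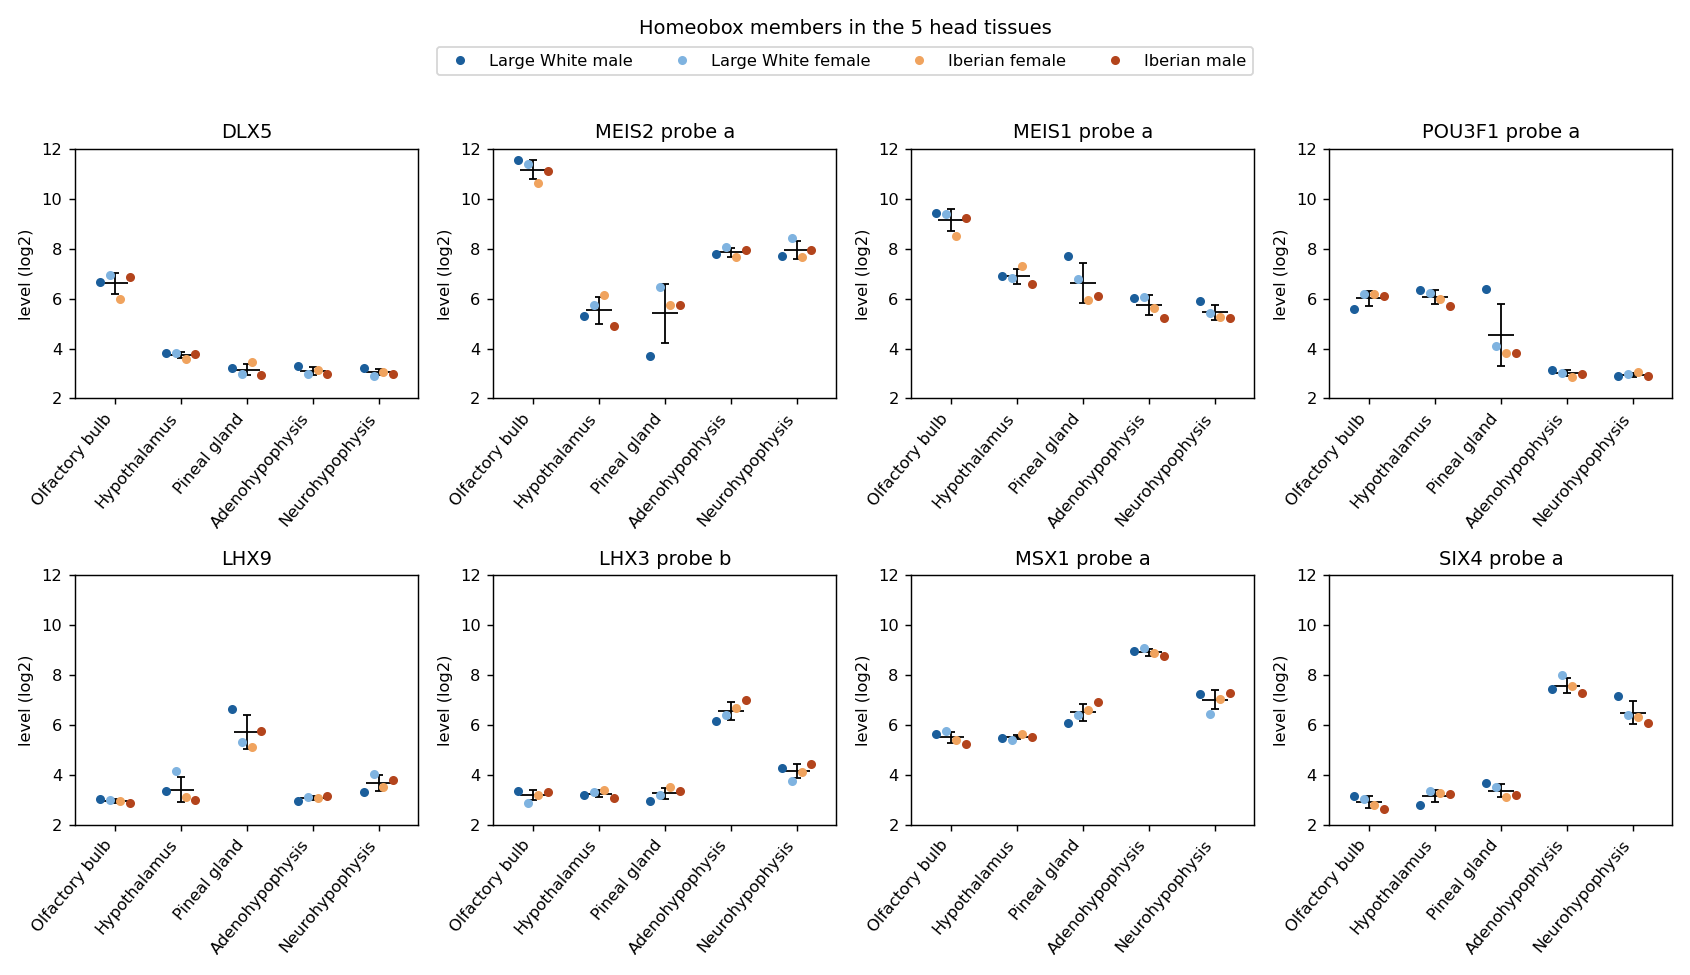
Levels (log2) of 8 homeobox probes in the 5 head tissues, 1 point per array coloured by animal, with mean and SD in black. DLX5, MEIS2 and MEIS1 are highest in olfactory bulb, LHX9 in pineal gland, and LHX3, MSX1 and SIX4 in adenohypophysis; the Large White male's pineal gland stands apart for POU3F1 at 6.41.

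Each tissue was last set against the mean of the other 15, which gave 65 calls of a member being higher and 60 of a member being lower. The tissues with most higher members were both adrenal samples with 8 probes each (23.5% of the members), against 5.05% of all probes in cortex and 5.03% in medulla. Some of these were 2 probes of 1 gene. HOXD8 led them (4.22 ± 0.17 in cortex and 4.03 ± 0.17 in medulla), followed by MEIS1 probe a (3.36 ± 0.32 in both) and MEIS1 probe b (2.92 and 3.02 ± 0.16). MEIS1 probe a read 10.53, 10.4, 10.24 and 10.62 in cortex and 10.52, 10.38, 10.34 and 10.54 in medulla, above the arrays of every other tissue. MEIS2, PRRX1 and HOXB7 probe a were called in both as well, while HOXA9 was called lower in both. MEIS1 and MEIS2 were also called higher in olfactory bulb, where HOXA3, HOXA9 and HOXD8 were called lower. PBX2, the third TALE gene, was called in no tissue.

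Biceps femoris had 7 members higher (20.6% of the members), against 7.24% of all probes. HOXA9 (4.8 ± 0.16), SIX4 probe a (3.09 ± 0.26) and HOXD8 (2.73 ± 0.17) led them. HOXD10 was called in Biceps femoris and in blood (1.51 ± 0.1 and 1.06 ± 0.1). Diaphragm had 6 (17.6%, against 6.81%), led by SIX4 probe a (4.01 ± 0.26), PRRX1 (2.95 ± 0.17) and SIX4 probe b (2.93 ± 0.16). Abdominal fat had 6 (17.6%, against 5.84%) and back fat 5 (14.7%, against 6.14%). In abdominal fat HOXA9 (3.97 ± 0.16), HOXD8 (2.61 ± 0.17) and PRRX1 (2.51 ± 0.17) came first, and in back fat the order was HOXA9 (4.47 ± 0.16), HOXD8 (2.43 ± 0.17) and PRRX1 (2.26 ± 0.17). MEOX2 was called higher in both fats (1.04 ± 0.11 in abdominal and 1.43 ± 0.11 in back fat) and in none of the other 14 tissues. Its arrays of diaphragm (mean 3.95) and Biceps femoris (3.86) nevertheless overlapped those of abdominal fat (4.08).

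Ileum had 2 members higher (5.88% of the members, against 7.93% of all probes), HOXA9 (3.49 ± 0.16) and HOXB7 probe a (1.26 ± 0.17). Thyroid gland had 2 (5.88%, against 6.59%), SIX4 probe a (1.79 ± 0.26) and MEIS2 probe a (1.04 ± 0.26). The call of MEIS2 was lost without the Iberian female (0.98), without the Iberian male (0.92), after quantile normalization (0.97) and without blood (0.78). Liver had 0 members called higher, against 7.72% of all probes, and stomach 0, against 5.17% (limma, with 2 members in liver and 6 in stomach higher at an unadjusted p under 0.05).

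Olfactory bulb had 6 members higher (17.6% of the members), against 8.73% of all probes. MEIS2 probe a (4.23 ± 0.26), DLX5 (3.23 ± 0.11) and MEIS2 probe b (3.12 ± 0.29) came first. Adenohypophysis had 5 (14.7%, against 6.19%), with LHX3 probe b (3.17 ± 0.1), SIX4 probe a (2.99 ± 0.26) and MSX1 probe a (2.95 ± 0.13). Neurohypophysis had SIX4 probe a alone (1.84 ± 0.26), 2.94% of the members against 5.67%. Hypothalamus had POU3F1 probe a alone (2.58 ± 0.2), 2.94% of the members against 8.92%.

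Pineal gland had 1 member, LHX9 (2.94% of the members), against 7.87% of all probes. LHX9, which in rodents is needed for the pineal gland to form, read 6.65, 5.3, 5.12 and 5.77, above every array of every other tissue (2.49 ± 0.13, adjusted p = 1.6e-22). The Large White male's pineal array also had POU3F1 probe a at 6.41, against 3.83 to 4.12 on the other 3, with glial markers at 7.91 against 5.33 to 5.64 and neuron markers at 9.66 against 8.51 to 8.61. The mean of 3 pineal marker probes was 4.79 on this array, against 6.95 to 7.76 on the other 3 and 4.77 to 5.14 in blood. LHX9 was thus highest on the pineal array on which the pineal markers were lowest, and the part of tissue content in its level was not tested. Without this array the LHX9 difference was 2.19 log2 units.

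Blood had 7 members higher (20.6% of the members). Of all probes, 15.1% were called higher in blood, the largest share of all probes in any tissue. The largest differences of members were those of MSX1 probe b (1.34 ± 0.11), LHX3 probe a (1.32 ± 0.12) and POU2F2 (1.14 ± 0.09). POU2F2, a factor of B lymphocytes, read 5.39, 5.81, 5.27 and 5.69. The dimmest 25% of all probes, 5984 in number, had a median difference of 0.52 in blood, against -0.16 to 0.15 in the other tissues. The part of this shift in the blood calls, which also took in NKX6-1, POU3F1 probe b and POU5F1, was not tested. MEIS2 probe a was at its lowest of all tissues in blood.

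The 60 calls of a lower member came from 10 probes. HOXA9 was lower in 10 tissues, HOXD8 in 9, SIX4 probe a in 8, PRRX1 in 7, MEIS2 probes a and b in 6 and 5, HOXA3 in 5, HOXB7 probe a in 4, and both MEIS1 probes in 3 each. HOXA9, HOXD8 and HOXA3 were lower in each of the 5 head tissues. Hypothalamus and pineal gland had 8 lower members each (23.5% of the members), against 4.94% and 5.17% of all probes. These members were HOXA3, HOXA9, HOXB7 probe a, HOXD8, PRRX1, both MEIS2 probes and SIX4 probe a. Adenohypophysis had 7 (20.6% against 4.79%) and neurohypophysis 6 (17.6% against 2.77%), both with the MEIS1 probes among them. Olfactory bulb had 4 (11.8% against 5.81%). Of the body tissues, liver had 5 (14.7% against 8.26%) and ileum 4 (11.8% against 7.34%). Thyroid gland had 4 (11.8% against 4.5%) and stomach 3 (8.82% against 4.33%). Biceps femoris (5.88% against 11.7%) and both adrenal samples (5.88% against 4.5% in cortex and 3.37% in medulla) had 2 each. In Biceps femoris these were the MEIS2 probes, and in the adrenal samples HOXA9 and SIX4 probe a. Blood had 5 (14.7% of the members), against 17.3% of all probes. Diaphragm (against 6.96%), abdominal fat (against 3.96%) and back fat (against 4.57%) had 0 (limma, with 4 members in diaphragm, 11 in abdominal fat and 9 in back fat lower at an unadjusted p under 0.05).

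Of the pathways around the members, 13 genes of other homeobox families had 26 probes, of which 2 were called higher and 2 lower in body against head, where 5.84% of all probes were higher and 7.89% lower, so that these counts are near the share of all probes. TGIF1 (1.35), a TALE repressor, and HHEX (1.1), a factor of liver and thyroid, were higher, and HOPX (-2.26) and PKNOX2 (-1.56), a TALE factor, were lower. TSHZ1, known from the olfactory bulb of the mouse, was higher in olfactory bulb than in hypothalamus by both of its called probes (2.05 and 1.04). Retinoic acid sets the limits of HOX expression in the embryo. Of the 13 probes of 9 genes of its synthesis and receptors, 1 was higher and 1 lower in body against head (RBP4 at 1.15 and RXRG at -1.13), again near those shares. In adenohypophysis against neurohypophysis 4 of the 13 were higher, against 2.82% of all probes, RBP4 (4.24), the carrier of vitamin A, ALDH1A1 by 2 probes (2.39 and 2.22) and RXRG (2.26). Polycomb and trithorax proteins keep HOX genes off or on. Of their 19 probes of 15 genes, 0 were called in body against head, and EZH2 (3.04) and MTF2 (1.7), of the repressing complex, were higher in ileum than in stomach, where 6.93% of all probes were higher.

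Breed and sex were compared on the means of the 4 animals over all tissues, where no exact permutation test can go below p = 0.333. Limma called 0 members in either comparison, with 3 members at an unadjusted p under 0.05 for breed and 1 for sex. PBX2 probe a, of a TALE partner of HOX proteins, had the largest difference for breed. Its means were 6.63 and 6.6 in the Large White male and female, against 6.22 and 6.15 in the Iberian female and male (0.42 ± 0.06, adjusted p = 0.18), it was higher in Large White in 14 of 16 tissues, and in 11 of them both Large White arrays were above both Iberian arrays. MEIS2 probe b was next (-0.23 ± 0.06, adjusted p = 0.29). With all 64 arrays as replicates limma gave PBX2 probe a an adjusted p of 1.4e-05. That fit counts the 16 tissues of an animal as replicates of its breed, so this p does not measure the spread between animals. The 16 tissues come from the same 4 animals and are not independent of each other. Probe b of the same gene differed by 0.09 ± 0.06 (adjusted p = 0.6, and 0.46 with all 64 arrays). The larger difference was thus seen in 1 of 2 probes and was not called over animals. Between males and females MEIS2 probe a (-0.3 ± 0.06, adjusted p = 1) and HOXA3 (-0.18 ± 0.08, adjusted p = 1) differed most, and males were higher in 3 and 5 of 16 tissues. No breed or sex difference of a member exceeded 0.42 log2 units.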

How the data were processed

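The submitters' processing notes name GCOS, with which the authors read the signals of 64 Affymetrix porcine arrays, and the study's methods name RMA over all arrays by libaffy. The deposited values are log2 RMA values of 24123 probe sets, made by the authors, and 188 controls were left out here. RMA equalises array distributions and summarises the oligonucleotides of a probe set, so levels of different probes were not compared. An array has no read depth, and its precision rests on the 4 arrays per tissue. The arrays of 1 tissue come from different animals.

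Gene symbols are those of the array platform and may be outdated. Of the 34 members 32 were found by Entrez number in a RefSeq table, with 0 changed symbols. No sequences or coordinates are given. Members and gene lists were chosen with earlier results of these data known. Named were HOXD8, PRRX1, MEOX2, DLX5, all HOX probes, up to 4 called members per direction and comparison, up to 3 called higher per tissue, up to 3 called genes per direction of the other lists, and the 2 members with the largest difference between breeds and between sexes. Values of other members given beside these were chosen after they were seen.

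Tissue contrasts were fitted by limma 3.58.1 in R 4.3.3, in a model of tissue, breed and sex for the 64 arrays, with p adjusted after Benjamini and Hochberg over 23935 probes. Breed and sex were fitted on the 4 animal means. The fit of tissue contrasts was run on simulated data with independent noise on each array and set differences. Those data held no other spread between tissues and no effect of the animal, so that run cannot speak to either. Tables and figures used Python 3.11.15, pandas 2.3.3, scipy 1.17.1 and matplotlib 3.10.9. All tissues came from the same 4 animals, which pairs the arrays. After removal of tissue means, arrays of 1 animal correlated by 0.189 on average over 480 pairs, 385 of them above 0.1, and arrays of different animals by -0.0629 over 1440 pairs. Alternatives were quantile normalization, natural logarithms of the log2 values, a filter on dim probes, the animal as a block, other sets of arrays or tissues, no minimum difference and 1 probe per gene.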

Additional observations from a re-analysis of the deposited data

Results flagged for a closer look

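Of 94 groups of 4 arrays (of members called in a tissue or pair of tissues, of HOX members in the body, and of others whose single values are given), 3 held an array whose gap to the nearest of the others, over the range of the group, exceeded Dixon's critical value for 4 samples. Chance alone gives about 1 in 20. For MEIS2 probe b the Large White female stood apart in 2 tissues. In olfactory bulb that array read 8.91, against 8.49, 8.51 and 8.51 on the others, and in diaphragm it read 5.32, against 6.63, 6.47 and 6.51. For POU3F1 probe a the Large White male's pineal gland read 6.41, against 3.83 to 4.12 on the other 3 arrays. Over all 544 groups of a member and a tissue, 23 exceeded the same value.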

How the results depend on the processing

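Every named difference kept its direction under all alternatives. Of 697 alternative values of 59 named differences, 668 kept the call and 29 lost it. With the animal as a replicate block, fixed or random, the counts were 6 in body against head, 6 in Biceps femoris against diaphragm, 5 in ileum against stomach and 65 over the tissues, and no call of a named difference was lost. The random block used a consensus correlation of -0.0063, which leaves that fit close to the one without a block. Taking probes above the median level kept 10 members, and calls fell to 1 in body against head, 3 between muscles, 3 in gut, 3 in olfactory bulb against hypothalamus, 2 in the hypophysis and 21 over the tissues. Without a minimum difference they were 27, 15 and 12 in the first 3 comparisons and 126 over the tissues. With the compared arrays alone, muscles and gut gave 3 each, and the gut calls lost were both MEIS2 probes. Body against head gave 3 with tissue means as units and 10 without the olfactory bulb, and 1 probe per gene left 3 calls in olfactory bulb against hypothalamus. Leaving out 1 animal gave 6 to 8 calls in body against head, 4 to 7 between muscles, 3 to 7 in gut (3 without the Iberian female), 5 to 6 in olfactory bulb against hypothalamus, 4 to 5 in the hypophysis and 64 to 67 over the tissues. Without blood, a setting chosen after the data were seen, 57 calls were made over the other 15 tissues. For dim members such as HOXD12 a small difference would not be detectable.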
